A study of Mus musculus with 14 samples.

Results

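The BCL2 family decides, through the balance of its members, whether a cell's mitochondria release the proteins that start apoptosis. Its pro-survival proteins (here Bcl2, Bcl2l1, which encodes BCL-XL, and Mcl1) hold back the pore-forming BAX and BAK, and the BH3-only proteins (Bcl2l11, which encodes BIM, Bid, Bad, Pmaip1, which encodes NOXA, and Bbc3, which encodes PUMA) oppose the pro-survival proteins or activate the pore formers. In T cells, interleukin-2 and related cytokines that signal through STAT5 are known to raise pro-survival members, and BIM is known for its part in the death of activated T cells. The members were the 10 listed genes, each taken from a probe set annotated to that symbol alone. Such a probe set was found for 9 of them, 1 per gene, out of 19752 genes on the array with a symbol of their own, and all 9 passed the filter on dim probe sets; Bax was not analysed here.

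Splenic CD4+ T cells of male C57BL/6 mice aged 6 weeks were selected negatively and activated with CD3/CD28 beads for 48 h. They then received interferon alpha at 100 U/ml together with 1 of 7 JAK inhibitors at its IC80, for 2 h or 8 h. The inhibitors are named by the target on their labels, with the code of the sample title: JAK1 (IFN.3404), JAK1/2 (IFN.6221), PAN (IFN.6222), TYK2 (IFN.2485), JAK2 (IFN.3885) and a pair for JAK3 (IFN.6226 and IFN.6228), where IFN is the interferon that all samples received. Each inhibitor and time had 1 Affymetrix Mouse Gene 1.0 ST array, 14 in all and none repeated, and no array of untreated or inhibitor-free cells was used here. The labels do not say whether the cultures came from separate mice, so every p below rests on the spread between inhibitors, or on how unevenly they changed over time, and not on repeated cultures. The inhibitor codes carry no structure, and values are log2 intensities of RNA, which say nothing of protein.

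The labelled cell type was borne out by its markers, Cd3e averaging 12.37 and Cd4 11.82 in log2 intensity over all arrays. The summed intensity of 5 T cell markers was 18242 to 20246 at 2 h and 22101 to 23461 at 8 h. Markers of other cells were dimmer, but 3 of 4 B cell markers summed to 1131 to 1307 at 2 h and 1486 to 1813 at 8 h, and both CD8 markers to 501 to 563 and 646 to 771. These sums rose with time without overlap, and their part in the changes over time described here was not tested. The 8 skeletal muscle markers summed to 857 to 1531 at 2 h and 883 to 1551 at 8 h, and 4 macrophage and monocyte markers to 220 to 313 and 201 to 303. The 2 markers each of granulocytes, NK cells and dendritic cells were all below the filter. The JAK1 array at 8 h stood farthest from the others of its time (mean Pearson r 0.990 across probe sets, which are not independent replicates), and single-inhibitor results for JAK1 and JAK2 are given without it too. Fewer cells of a type and less RNA per cell cannot be told apart in such bulk samples.

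Stretches of the promoters of the members whose RNA moved most over time, or that held a searched motif, are shown from RefSeq sequences (build GRCm38.p6), since later paragraphs return to these genes. Of the 9 members, 8 were matched to a promoter window of 300 bases, 250 before and 50 after a start site, and Pmaip1 was not. For Bcl2 and Bcl2l1 the 100 bases before the most upstream start are printed. For Bcl2l11 and Bbc3 the capitals mark GTAAACA or its complement TGTTTAC, the core that FOXO factors bind.
Bcl2, chr1:106714291-106714390, minus strand: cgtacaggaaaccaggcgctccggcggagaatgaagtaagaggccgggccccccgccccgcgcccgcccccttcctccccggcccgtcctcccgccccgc
Bcl2l1, chr2:152831729-152831828, minus strand: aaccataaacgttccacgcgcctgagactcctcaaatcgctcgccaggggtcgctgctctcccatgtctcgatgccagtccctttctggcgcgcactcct
Bcl2l11, chr2:128125788-128125887, plus strand: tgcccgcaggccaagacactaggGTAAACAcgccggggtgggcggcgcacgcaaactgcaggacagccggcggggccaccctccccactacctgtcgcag
Bbc3, chr7:16310083-16310112, plus strand: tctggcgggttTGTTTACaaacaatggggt

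On both strands, GTAAACA was found in 2 of the members' 14 windows, 1 of Bcl2l11 and 1 of Bbc3, and in 3.65% of all 32851 windows of this length. TTCNNNGAA, the spaced palindrome of STAT factors, was in 0 of the 14 windows and in 8.3% of all. The core of the interferon-stimulated response element was in 0 and 3.44%, and the AP-1 site TGACTCA in 0 and 5.2%. A match describes letters in a window and is not evidence of binding. The Bcl2 window was rich in G and C (76.0%, against a median of 52.7% over all windows), while that of Bcl2l1 was at 52.3%.

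From 2 h to 8 h the RNA of Bcl2, Bcl2l1, Bcl2l11 and Bid fell, that of Bad and Bbc3 rose, and that of Mcl1, Bak1 and Pmaip1 did not pass the test. The falls thus included a pair of pro-survival genes and a pair of BH3-only genes. The largest was that of Bcl2, 1.72-fold, and the smallest change that passed was that of Bid, 1.19-fold. Times were compared with limma in a fit of inhibitor and time, and p was adjusted over all 11851 genes tested. The count of 6 of 9 members (66.7%) stands beside 49.3% of all genes called in this comparison, 21.3% higher and 28% lower at 8 h. At an unadjusted p under 0.05 it was again 6 members, and 55% of all genes. A change over time was thus common on these arrays, and the share of members called is not far from the background. The median change of the members was 0.03 and that of all genes 0.02, while the median size of change was 0.26 against 0.16.

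**Figure D1:**
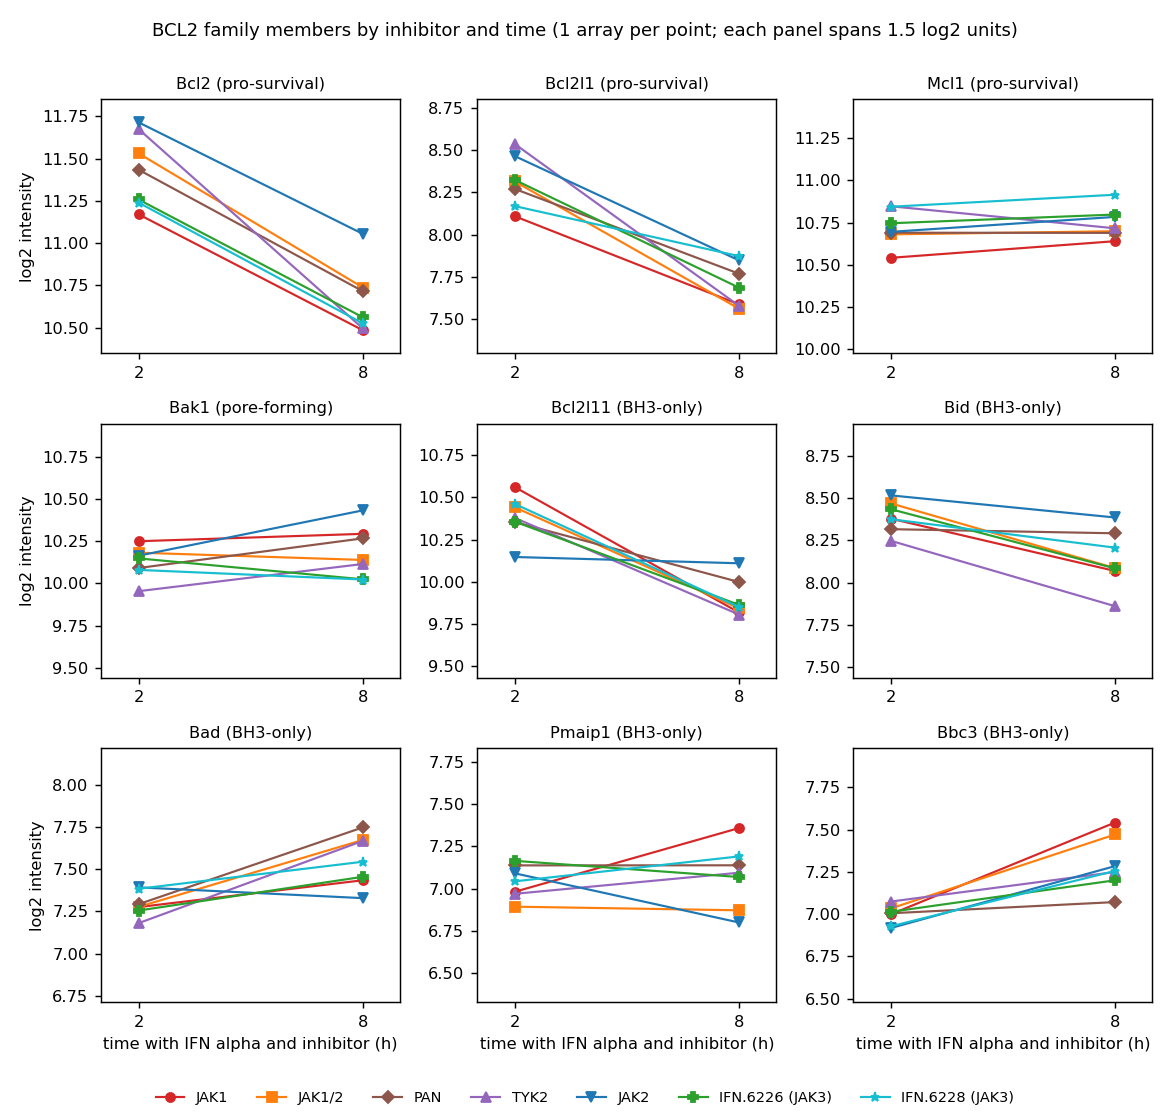
Log2 intensity of the 9 members (vertical axis, each panel spanning the same width) at 2 h and 8 h (horizontal axis), with 1 line per inhibitor and 1 array per point. The lines of Bcl2, Bcl2l1 and Bcl2l11 fall, with no 8 h point at or above a 2 h point of the same gene, and the JAK2 line of Bcl2l11 stays near level, from 10.15 to 10.11.

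Among the pro-survival genes, Bcl2, the founding member that guards the mitochondrial membrane, was at 11.17 with the JAK1 inhibitor at 2 h, 11.53 with JAK1/2, 11.43 with PAN, 11.68 with TYK2, 11.71 with JAK2, 11.26 with IFN.6226 and 11.24 with IFN.6228. At 8 h the Bcl2 values in the same order were 10.48, 10.74, 10.72, 10.50, 11.05, 10.56 and 10.53. Every 8 h array lay below every 2 h array; over all genes, values did not overlap between the times in 24.4%. The JAK2 inhibitor gave the highest level and the JAK1 inhibitor the lowest at both times, while TYK2 went from next to highest to next to lowest. Bcl2 fell by 0.78 on the log2 scale (SE 0.06, n = 7 inhibitors, limma adjusted p = 1.05e-07), lower in 7 of 7 inhibitors. A two-sided exact sign-flip permutation of the 7 differences gave 0.0156, the smallest p it allows.

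Bcl2l1, whose product BCL-XL is induced on T cell activation, was at 8.11 with JAK1 at 2 h, 8.31 with JAK1/2, 8.27 with PAN, 8.54 with TYK2, 8.46 with JAK2, 8.32 with IFN.6226 and 8.17 with IFN.6228. Its 8 h values in that order were 7.59, 7.56, 7.77, 7.58, 7.85, 7.69 and 7.87. The times again did not overlap, but the order of the inhibitors changed. Bcl2l1 fell by 0.61 (SE 0.07, n = 7, 1.53-fold, limma adjusted p = 1.04e-05), between 0.30 with IFN.6228 and 0.96 with TYK2. The change of Bcl2 was below that of Bcl2l1 in 7 of 7 inhibitors.

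Mcl1, a pro-survival protein with a short life in the cell, lay between 10.54 and 10.85 at 2 h (median 10.70) and between 10.64 and 10.92 at 8 h (median 10.72). The times overlapped almost fully, and the JAK1 inhibitor had the lowest level at both. Its mean change was 0.03 (SE 0.04, 95% interval -0.07 to 0.12, limma adjusted p = 0.615), with 5 inhibitors higher and 2 lower at 8 h. The interval leaves out falls of the size seen in Bcl2 or Bcl2l1, but the difference between genes was not tested.

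Bak1, the pore former that sits in the mitochondrial outer membrane, lay between 9.95 and 10.25 at 2 h (median 10.15) and between 10.02 and 10.43 at 8 h (median 10.14). Its highest array was that of the JAK2 inhibitor at 8 h. The change was 0.06 (SE 0.06, 95% interval -0.06 to 0.18, limma adjusted p = 0.389), higher in 4 of 7 inhibitors. This call depended on the scaling of the arrays: after quantile normalization Bak1 was at 0.11 (limma adjusted p = 0.0480) and after cyclic loess at 0.12 (limma adjusted p = 0.0404), both past the threshold.

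**Figure D2:**
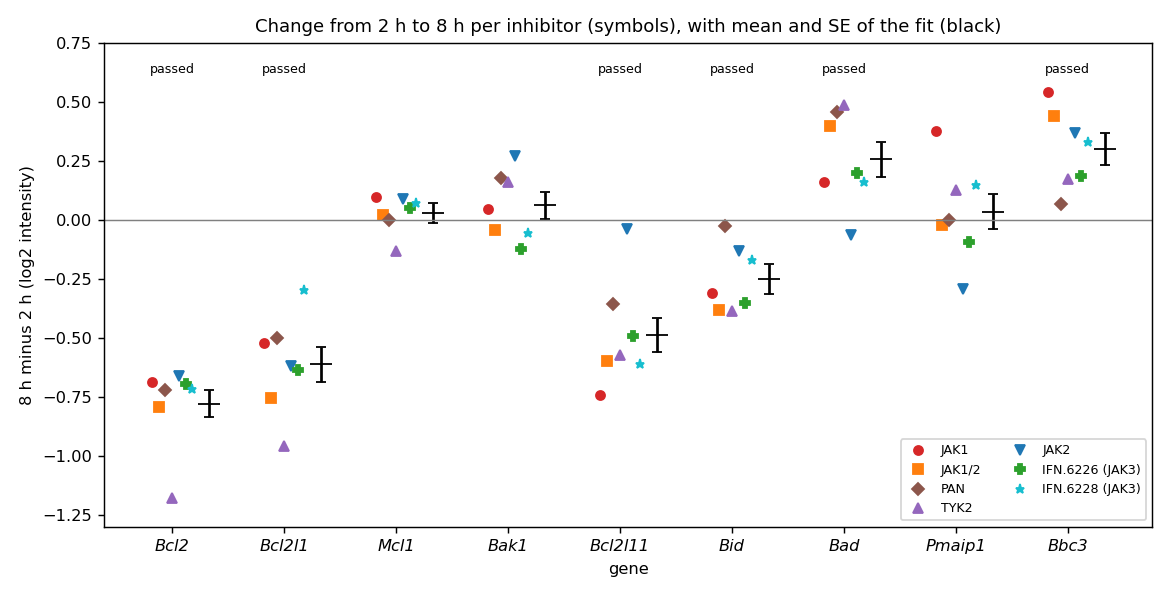
Change of each member from 2 h to 8 h in log2 intensity (vertical axis) by gene (horizontal axis), with 1 symbol per inhibitor, the mean and SE of the fit in black, and the word passed over the 6 genes with a limma adjusted p under 0.05. The TYK2 symbol of Bcl2, at -1.18, lies below the other 6, which are between -0.79 and -0.66.

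In the BH3-only group, Bcl2l11, whose product BIM binds all pro-survival members, was at 10.56 with JAK1 at 2 h, 10.44 with JAK1/2, 10.35 with PAN, 10.38 with TYK2, 10.15 with JAK2, 10.36 with IFN.6226 and 10.46 with IFN.6228. At 8 h the Bcl2l11 values were 9.82, 9.84, 9.999, 9.81, 10.11, 9.86 and 9.85. The JAK2 inhibitor thus had the lowest level at 2 h and the highest at 8 h, and its change of -0.04 was the smallest of the 7 (others -0.74 to -0.35). With 1 array per point this single change has no error of its own. Over all inhibitors Bcl2l11 fell by 0.49 (SE 0.07, n = 7, 1.40-fold, limma adjusted p = 5.96e-05). Bcl2 fell more than Bcl2l11 with 6 of 7 inhibitors, all but JAK1.

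Bid, which links death receptors to the mitochondria once it is cleaved, lay between 8.25 and 8.52 at 2 h (median 8.38) and between 7.86 and 8.38 at 8 h (median 8.09). The ranges overlapped, the TYK2 inhibitor was lowest and the JAK2 inhibitor highest at both times, and PAN hardly moved (-0.02). Bid fell by 0.25 (SE 0.06, n = 7, limma adjusted p = 0.00428), lower in 7 of 7 inhibitors (exact sign-flip p = 0.0156).

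Bad, which growth factor kinases hold inactive by phosphorylation, lay between 7.18 and 7.39 at 2 h (median 7.28) and between 7.33 and 7.75 at 8 h (median 7.54). It rose by 0.26 (SE 0.07, n = 7, limma adjusted p = 0.00977, exact sign-flip p = 0.0312) and was higher in 6 of 7 inhibitors, the JAK2 inhibitor being the exception at -0.06. The rises were 0.40 with JAK1/2, 0.45 with PAN and 0.49 with TYK2, against 0.16 to 0.20 with JAK1 and the JAK3 pair.

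Bbc3, whose product PUMA is induced by p53 and FOXO factors, was tightly grouped at 2 h, between 6.92 and 7.07, and spread between 7.07 and 7.54 at 8 h (median 7.26). It rose by 0.30 (SE 0.07, n = 7, 1.23-fold, limma adjusted p = 0.00217), higher in 7 of 7 inhibitors (exact sign-flip p = 0.0156), from 0.07 with PAN to 0.54 with JAK1. Bcl2l11 and Bbc3, the members with GTAAACA in a window printed above, therefore moved in opposite directions over time. Pmaip1, whose product NOXA acts against MCL1, lay between 6.89 and 7.16 at 2 h and between 6.80 and 7.36 at 8 h, at a change of 0.03 (SE 0.08, 95% interval -0.13 to 0.20, limma adjusted p = 0.725). It was higher at 8 h with 4 inhibitors, most with JAK1 (0.38), and lower with 3, most with JAK2 (-0.29). Bad, Pmaip1 and Bbc3 are the dimmest members, so a filter at the 60th percentile would leave them untested.

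JAK1 and TYK2 are the kinases of the receptor for interferon alpha. The 4 inhibitors labelled with either (PAN was taken to include JAK1) were therefore compared with the JAK2 inhibitor and the JAK3 pair. JAK2 is named in both classes, since the JAK1/2 inhibitor is among the 4. If PAN covers every JAK, JAK3 is a target in both classes too. At 2 h no member passed (limma, 0 of 9, with 0 at an unadjusted p under 0.05; background 0.692%, and 4.1% unadjusted), and the smallest adjusted p was 0.994. Values overlapped between the classes in all 9 members, and did not in 5.01% of all genes. Bcl2 averaged 11.45 ± 0.21 (SD, n = 4) in the first class and 11.40 ± 0.27 (n = 3) in the second, which differ by 0.05 (95% interval -0.22 to 0.31). Bcl2l1 differed by -0.01 (-0.23 to 0.21) and Bcl2l11 by 0.11 (-0.06 to 0.28). In the same comparison all 6 interferon-induced reference genes were lower, among them Rsad2, the antiviral protein viperin, at -1.95 (SE 0.15, limma adjusted p = 1.20e-04). The members' intervals hold no difference of that size.

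At 8 h the same classes gave 0 called members (limma, 0 at an unadjusted p under 0.05; background 0%, with 15.6% of all genes at an unadjusted p under 0.05). Mcl1 was at 10.69 ± 0.03 (SD, n = 4) against 10.83 ± 0.07 (n = 3), and it was the only member whose values did not overlap, where 19.1% of all genes had none. That difference was -0.15 (SE 0.07, 95% interval -0.31 to 0.02, limma adjusted p = 0.325), beside a median of -0.08 over all genes, and it was -0.05 after quantile normalization. Bcl2l1 was at -0.18 (-0.39 to 0.03) and Bad at 0.19 (-0.03 to 0.41). The change from 2 h to 8 h was not shown to differ between the classes for any member (limma, 0 of 9, 0 at an unadjusted p under 0.05; background 0.101%, and 10.1% unadjusted). The largest such difference was that of Bad, whose mean change was 0.37 ± 0.15 (SD, n = 4) where JAK1 or TYK2 is named and 0.10 ± 0.14 (n = 3) with the others (difference 0.28, SE 0.13, limma adjusted p = 0.479).

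The interleukin-2 receptor and its relatives use JAK1 and JAK3. The 5 inhibitors labelled with either of these (PAN included) were compared with those of JAK2 and TYK2. The first class holds the JAK1/2 inhibitor, so JAK2 is named in both. If PAN covers every JAK, TYK2 is a target in both classes too. At 2 h Bcl2 was at 11.33 ± 0.15 (SD, n = 5) against 11.69 ± 0.03 (n = 2), and Bcl2l1 at 8.24 ± 0.09 against 8.50 ± 0.05. Neither gene overlapped between the classes, as was so for 2 of 9 members and 14.9% of all genes. Bcl2 differed by -0.37 (SE 0.09, 95% interval -0.56 to -0.17) and Bcl2l1 by -0.26 (SE 0.08, -0.44 to -0.09). Neither passed over all genes, with limma adjusted p of 0.231 and 0.322, and adjusted p for Bcl2 from 0.161 to 0.803 over the alternatives tried, the highest without the JAK2 inhibitor. No member was called (limma, 0 of 9, 2 at an unadjusted p under 0.05; background 0.0506%, and 8.89% unadjusted). At 8 h the difference of Bcl2 was -0.17 (-0.47 to 0.13) and that of Bcl2l1 -0.02 (-0.30 to 0.26), and the classes overlapped in all members, where 5.23% of all genes had no overlap (limma, 0 of 9, 0 at an unadjusted p under 0.05; background 0%, and 0.7% unadjusted). At that time the TYK2 array was next to lowest for both genes.

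**Figure D3:**
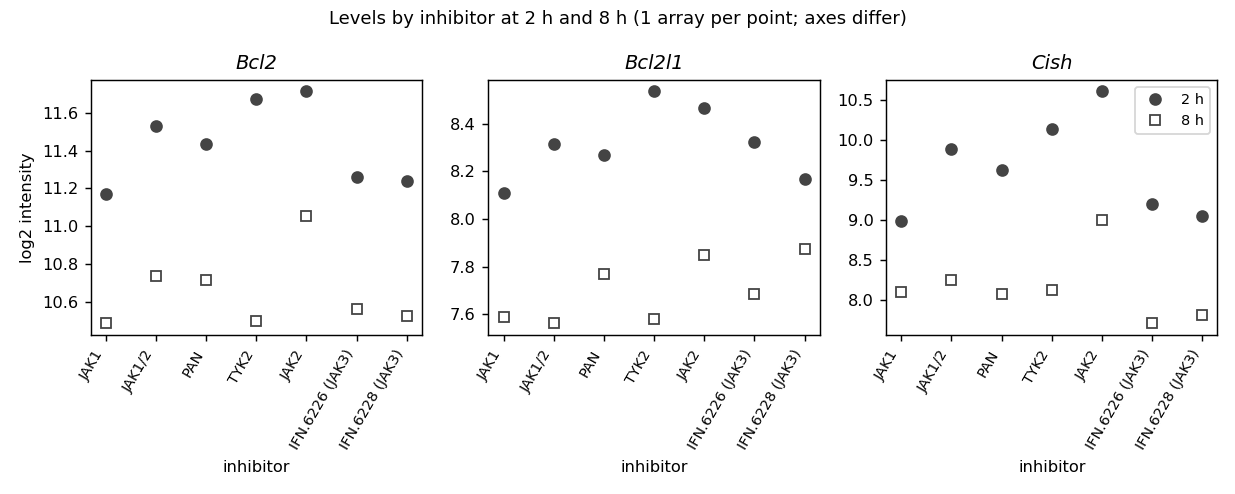
Log2 intensity (vertical axis, scaled separately) of Bcl2, Bcl2l1 and the STAT5-induced gene Cish for each inhibitor (horizontal axis) at 2 h (filled circles) and 8 h (open squares), with 1 array per point. For Bcl2 and Cish the JAK2 inhibitor is highest at both times, at 11.71 and 11.05 for Bcl2 and at 10.61 and 9.01 for Cish.

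Taken 1 inhibitor at a time against the other 6, no member passed with any inhibitor (limma, 0 of 9 in each of the 7 comparisons). Members at an unadjusted p under 0.05 numbered 2 with JAK1, JAK2 and IFN.6228 each, 1 with TYK2 and 0 with the others, where the unadjusted share of all genes was 25.9% for JAK1, 4.64% for JAK2, 6.89% for IFN.6228, 4.81% for TYK2, 3.18% for IFN.6226, 5.23% for JAK1/2 and 0.321% for PAN. The backgrounds after adjustment were 7.66% for JAK1 (6.73% lower), 0.0759% for JAK2, 0.00844% for JAK1/2 and 0% for PAN, TYK2 and the JAK3 pair. Bcl2 with the JAK2 inhibitor came nearest, at 0.40 above the rest (SE 0.08, 95% interval 0.22 to 0.58, n = 2 arrays against 12, limma adjusted p = 0.0924). It passed when the TYK2 inhibitor was left out (0.42, limma adjusted p = 0.0402) or the JAK1 array at 8 h (0.41, limma adjusted p = 0.0205), and over all alternatives the adjusted p ran from 0.0205 to 0.212.

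With the JAK1 inhibitor Bcl2 was at -0.25 (SE 0.08, limma adjusted p = 0.0808) and Mcl1 at -0.17 (SE 0.06, limma adjusted p = 0.110). Without its 8 h array, which leaves 1 array of this inhibitor, Bcl2 was at -0.31 (limma adjusted p = 0.195) and Mcl1 at -0.21 (limma adjusted p = 0.216), with 1.95% of all genes called in place of 7.66%. Bcl2 passed there when the TYK2 inhibitor was left out (-0.25, limma adjusted p = 0.0431). In that comparison the directions over all genes followed the scaling, with 111 genes higher and 797 lower as deposited and 745 and 758 after quantile normalization, where Bak1 was called. With IFN.6228 Bcl2 was at -0.19 (limma adjusted p = 0.722) and Mcl1 at 0.17 (limma adjusted p = 0.673). Bid was at -0.25 with TYK2 (limma adjusted p = 0.871) and at 0.22 with JAK2 (limma adjusted p = 0.936). None of these 4 differences passed, which does not show that the inhibitors act alike.

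After each time's mean was taken off, the gene whose pattern over the 14 arrays was most like that of Bcl2, of all genes tested, was Cish, a feedback inhibitor of cytokine receptors that STAT5 induces (Pearson r 0.92, Spearman rho 0.91). Ncoa3, a transcriptional coactivator (r 0.91), and Lyst, a lysosomal trafficking regulator (r 0.91), followed. The r between Bcl2 and Cish was 0.98 within the 7 arrays at 2 h and 0.86 within those at 8 h. Without the JAK2 inhibitor it was 0.87 over 12 arrays, which pool both times. At 8 h the JAK2 array stood above the rest for both genes, at 11.05 for Bcl2 (next 10.74) and 9.01 for Cish (next 8.26). An r at 8 h without that array was not taken, so 0.86 does not show a likeness among the other inhibitors. The points share the arrays, and the 2 arrays of an inhibitor are not independent, so these are descriptions. In the list of STAT5-induced genes the r with Bcl2 ran from 0.70 for Lta, a lymphotoxin, to 0.92 for Cish, with 0.86 for Socs2, a feedback inhibitor of the same family. Without the JAK2 arrays that of Il2ra, the interleukin-2 receptor alpha chain, was 0.47.

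Cish was at 8.98 with JAK1 at 2 h, 9.89 with JAK1/2, 9.62 with PAN, 10.14 with TYK2, 10.61 with JAK2, 9.20 with IFN.6226 and 9.05 with IFN.6228. The 7 inhibitors stood in the same order for Cish as for Bcl2 at 2 h, from JAK2 down to JAK1. At 8 h Cish was at 9.01 with JAK2 and between 7.71 and 8.26 with the others. JAK2 and then JAK1/2 were highest for both genes at 8 h, but below these the orders differed. The lowest was IFN.6226 for Cish (7.71) and JAK1 for Bcl2 (10.48). Against the other inhibitors the JAK2 inhibitor had Cish higher by 1.06 (SE 0.14, limma adjusted p = 0.0211) and Socs2 by 0.79 (SE 0.09, limma adjusted p = 0.00781), 2 of 7 genes of that list. The kinase gene Pim1 was at 0.33 (SE 0.08, limma adjusted p = 0.133). With the JAK1 inhibitor 2 of the 7 were lower, Pim1 at -0.31 (SE 0.08, limma adjusted p = 0.0305) and Socs2 at -0.35 (SE 0.09, limma adjusted p = 0.0372). Of all genes, 0.0759% were called higher with JAK2 and 6.73% lower with JAK1. These directions were not particular to that list, whose medians were 0.38 with JAK2 and -0.29 with JAK1. The 6 interferon-induced reference genes had medians of 1.13 with JAK2, where 1 (Oasl2) was called higher, and -2.05 with JAK1, where 6 were called lower. With JAK1, 3 of 13 tested mitochondrial and downstream apoptosis genes were called lower too (Vdac2, Xiap and Aifm1, list median -0.18). Of 9 tested p53 target genes, 1 (Sesn2) was called higher with JAK1. Without the JAK1 array at 8 h, 5 of the 7 STAT5-induced genes were higher with the JAK2 inhibitor, Pim1 now among them at 0.36 (limma adjusted p = 0.0131). Calls over all genes rose too in that setting, from 0.0759% to 0.683% for the JAK2 inhibitor. With the JAK1 inhibitor, Pim1 was then at -0.46 (limma adjusted p = 0.00587) and Cish at -0.77 (limma adjusted p = 0.0103), while Socs2 at -0.45 no longer passed (limma adjusted p = 0.05998).

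For the other members of widest range, the nearest patterns were those of Rcl1 (r 0.85), Notch2 (0.85) and 4833439L19Rik (0.84) for Bcl2l1, and of Mettl8 (0.95), Dock9 (0.94) and Chd6 (0.94) for Bcl2l11. For Bid they were Tcof1 (0.96), Trmt10a (0.88) and Etv6 (0.87). An r above 0.8 was reached by 319 genes for Bcl2l11, against 37 for Bid, 29 for Bcl2 and 10 for Bcl2l1, so the pattern of Bcl2l11 was a common one on these arrays. Between members, the highest r was that of Bcl2 and Bcl2l1 (0.69, and 0.58 without the JAK2 arrays), and the lowest that of Mcl1 and Bak1 (-0.60).

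Of the other genes of the family and its pathway, most lists held changes in both directions from 2 h to 8 h. Among 10 tested genes with BCL2 homology or BCL2-binding products, 2 fell and none rose. Bnip3, a mitochondrial protein induced by low oxygen, fell by 1.49 (SE 0.09, limma adjusted p = 1.30e-08), and Bcl2a1c by 0.61 (SE 0.10, limma adjusted p = 2.43e-04). Bcl2a1c has near-identical copies whose other probe sets carry several symbols, so its value is uncertain. Bmf, a BH3-only gene, was at 0.15 (SE 0.06, limma adjusted p = 0.0667).

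Among mitochondrial and downstream apoptosis genes, 7 of 13 tested fell and 3 rose. Cycs, which encodes cytochrome c, fell by 0.30 (SE 0.05), the outer membrane channel Vdac1 by 0.32 (SE 0.04) and the apoptosis inhibitor Birc3 by 0.59 (SE 0.05). Apaf1, the scaffold that cytochrome c binds to activate caspases, rose by 0.62 (SE 0.07, limma adjusted p = 3.00e-06). The genes that moved thus included both promoters and inhibitors of apoptosis.

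Among 12 genes that regulate the family by phosphorylation, sequestration or turnover, 5 fell and 1 rose. Dynll2, a dynein light chain that binds BMF, fell by 0.46 (SE 0.06), Akt1, a kinase that phosphorylates BAD, by 0.27 (SE 0.05), and Huwe1, a ubiquitin ligase of MCL1, by 0.21 (SE 0.04). Trib2, a pseudokinase, rose by 0.35 (SE 0.04). Of 8 transcription factors linked to BH3-only genes, 4 fell and 2 rose. Runx3 fell by 1.14 (SE 0.06), Jun by 0.86 (SE 0.08), Myc by 0.57 (SE 0.06) and E2f1 by 0.58 (SE 0.07).

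Of 9 tested p53 target genes, 2 rose and 2 fell. Trp53inp1 rose by 0.46 (SE 0.05) and Ccng1, a cyclin, by 0.21 (SE 0.04), while Aen, a nuclease, fell by 0.50 (SE 0.06) and Zmat3 by 0.20 (SE 0.08). Of 7 STAT5-induced genes 4 fell. Socs2 fell by 1.47 (SE 0.06), Cish by 1.48 (SE 0.10), Lta by 0.85 (SE 0.07) and Il2ra by 0.81 (SE 0.05), with a list median of -0.81 where that of all genes was 0.02. The 6 interferon-induced reference genes all rose, by a median of 0.93. All of these calls are of limma at an adjusted p under 0.05 and stand beside the background of 49.3%.

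**Figure D4:**
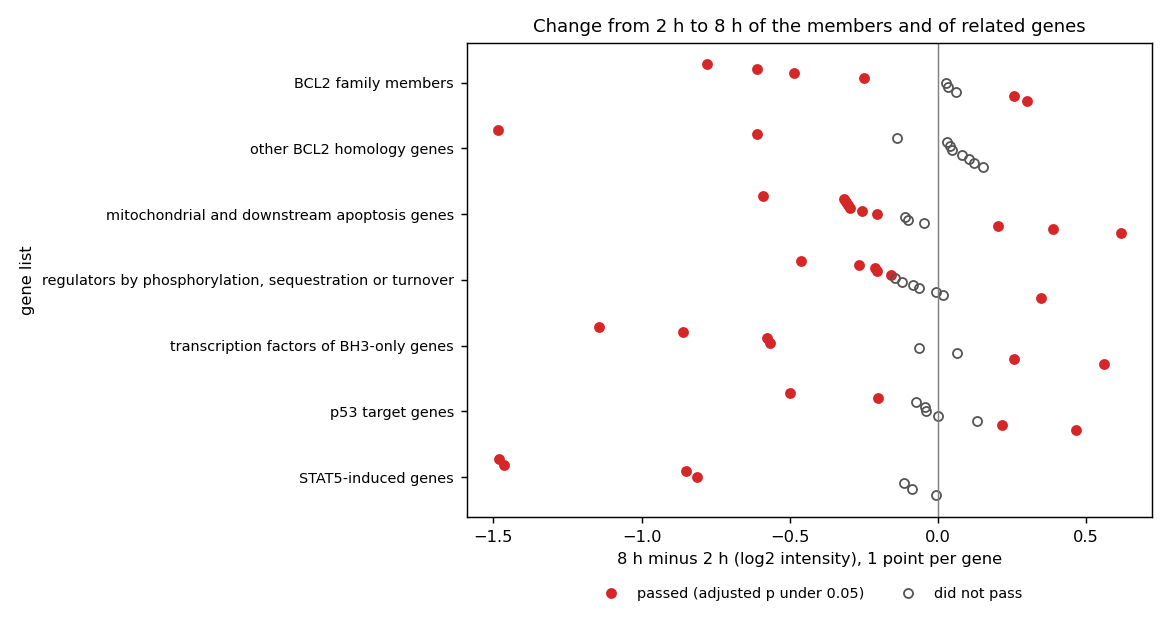
Change from 2 h to 8 h in log2 intensity (horizontal axis) of the 9 members and of the tested genes of 6 related lists (vertical axis), with 1 point per gene, filled where the limma adjusted p was under 0.05. The members lie between -0.78 and 0.30, and 4 of the 7 STAT5-induced genes lie at or below -0.81.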

How the data were processed

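The deposited values are 1 linear intensity per probe set and array for 14 arrays, made by the authors with Affymetrix Power Tools and RMA, per the submitters' processing notes; versions, background settings and the arrays normalized together are not given in the sources used here. They ran from 4.78 to 22879 and were put on the log2 scale. Of 24922 probe sets, 21425 carried 1 symbol (21347 matched by identifier to RefSeq names, 0 changed), and 1399 carried several. Each gene was read from its brightest probe set, and tested if its mean log2 intensity was at or above the 40th percentile (6.27).

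Tests used R 4.3.3 and limma 3.58.1 (lmFit, eBayes with a variance trend on mean level), with Benjamini-Hochberg adjustment over 11851 genes and a threshold of 0.05. Times and single inhibitors came from an additive fit of inhibitor and time (6 residual degrees of freedom), classes from 1 value per inhibitor (5). Named genes were all members, up to 4 called genes of each list with the smallest p, and the 3 genes most alike in pattern for the 4 members of widest range. The interferon-induced reference genes were mostly given as counts, with only Rsad2 and Oasl2 named. Bmf and, with the JAK2 inhibitor, Pim1 fall outside this rule, being picked with their values in view, as were Lta, Socs2 and Il2ra for their r with Bcl2. Members and lists were chosen with earlier results of these data known. The number of arrays limits the precision. Alternatives changed the normalization, filter, probe sets, offset, variance moderation, pairing and the inhibitors included. The steps were tested on simulated data. Figures used Python 3.11.15 and matplotlib 3.10.9.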

Additional observations from a re-analysis of the deposited data

Results flagged for a closer look

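The fall of Bcl2 from 2 h to 8 h with the TYK2 inhibitor, -1.18 on the log2 scale, lay apart from those with the other 6 inhibitors, which were between -0.79 and -0.66. Its gap to the nearest was 0.742 of the whole range. It was the only one of 27 sets of 7 values (levels at 2 h, levels at 8 h and changes of the 9 members) past the cutoff for this ratio (Dixon's), which lies below 0.742. Chance alone passes that cutoff in about 1 of 20 such sets, so 1 flag in 27 is near that rate. Without the TYK2 inhibitor Bcl2 fell by 0.71 and kept its call.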

How the results depend on the processing

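The count of members called between 2 h and 8 h was 6 and ranged from 4 to 7 over 18 alternatives. It was 7 with Bak1 after quantile normalization or cyclic loess, and 4 with the filter at the 60th percentile, where only 6 members were tested. The share of all genes called was 49.3% in the main fit, 53.2% after quantile normalization, 53.4% after cyclic loess and 61.4% with that filter. Bcl2, Bcl2l1, Bcl2l11 and Bid kept their direction and call in all 18 alternatives, and Bad and Bbc3 in the 17 that tested them. Changes of sign occurred in values near 0 that never passed: Mcl1 was at -0.0079 and Pmaip1 at -0.0014 after median centring, and Pmaip1 at -0.023 without the JAK1 array at 8 h; leaving out each inhibitor in turn gave Pmaip1 -0.023 to 0.089. Against the other 6 inhibitors, 1 member was called for JAK1 after quantile normalization or cyclic loess (Bak1), where 12.7% and 12.3% of all genes were. For JAK2, 1 member was called without the JAK1 array at 8 h (Bcl2), where 0.683% of all genes were. Leaving out each inhibitor in turn gave 0 to 1 for both JAK1 and JAK2, with Bcl2 called without TYK2. The share of all genes called without TYK2 was 3.81% for JAK1 and 0.0338% for JAK2. The causes were not tested. All other comparisons of classes or single inhibitors had 0 called members under every alternative. The comparison of times was paired by inhibitor, and the fit without that pairing called the same 6 members. By replicate number, no paired analysis was possible because all sample titles carry the same number. With 1 array per condition, no value here has an error from repeated cultures.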
